A study of Mus musculus with 24 samples.

Results

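The change in gene expression between day 7 and day 2 was examined in mouse embryonic fibroblasts (MEFs) given the reprogramming cocktail GHMT. The comparison takes the 3 libraries labelled GHMT at day 7 against the 3 labelled GHMT at day 2, which are 6 of the 24 libraries of the series, and covers every gene of the deposited count table. The cells were fibroblasts grown from C57BL/6 embryos of embryonic day 13.5 to 14.5. The letters of the cocktail usually stand for Gata4, Hand2, Mef2c and Tbx5, all delivered by retroviruses. Cultures of both days were given the whole cocktail and were kept in an induction medium with fetal bovine serum, horse serum and supplements. RNA was taken 7 or 2 days after transduction, so the groups differ in the time since transduction and not in the factors given. For context, the same day change was also measured in GMT cells (no Hand2), in AGHMT cells (Akt1 added, a growth factor kinase) and in mock cells, each with 3 libraries at day 7 and 3 at day 2. The labels do not say whether mock cells received an empty virus or the induction medium, what share of cells took up each virus, or whether the replicates came from separate cultures. The p-values thus reflect the spread among the libraries given, and that spread may be technical.

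Gata4 is a zinc finger factor, Hand2 a basic helix-loop-helix factor, Mef2c a MADS box factor and Tbx5 a T-box factor, and together they bind enhancers of heart muscle genes during development. Reprogrammed fibroblasts are known to switch on parts of the contractile apparatus, the sarcomere, in which myosin thick filaments slide along actin thin filaments anchored at the Z-disc, and parts of the calcium store that triggers contraction. They are also known to lose matrix production and other fibroblast properties over days to weeks. The direct day comparison asks what moves within cultures that were already given the cocktail.

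Promoters are shown for the contractile, calcium and natriuretic genes that moved most, because 3 of the cocktail factors have well known short recognition motifs. The genes are the 4 with the highest fold change among the called members of 5 gene lists (thick filament, thin filament, Z-disc, calcium handling, natriuretic signalling) that have an entry in the RefSeq promoter table of build GRCm38.p6 used here. Each stretch runs 5′ to 3′ on the gene's own strand, from 250 bases before the start to 50 bases after it. Capitals mark matches on either strand. The GATA motif searched was NGATAN in which the first base is A or T and the last is A or G. The T-box motif was GGTGTGA and the TATA box was TATAAA, and the MEF2 motif was searched by its usual consensus.
Lmod2 (chr6:24597521-24597820, plus strand): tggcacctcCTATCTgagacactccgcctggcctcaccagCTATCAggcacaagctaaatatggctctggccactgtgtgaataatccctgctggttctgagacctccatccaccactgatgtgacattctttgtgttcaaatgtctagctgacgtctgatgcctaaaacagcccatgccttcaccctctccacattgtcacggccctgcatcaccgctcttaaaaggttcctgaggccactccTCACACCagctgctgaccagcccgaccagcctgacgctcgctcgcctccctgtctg
Nppa (chr4:148000472-148000771, plus strand): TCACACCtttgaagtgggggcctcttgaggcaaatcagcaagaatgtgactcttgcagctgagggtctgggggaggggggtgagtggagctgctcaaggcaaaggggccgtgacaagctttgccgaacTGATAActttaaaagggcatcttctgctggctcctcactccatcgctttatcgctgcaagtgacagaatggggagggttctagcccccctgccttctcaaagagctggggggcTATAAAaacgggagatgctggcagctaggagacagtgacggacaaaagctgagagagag
Xirp2 (chr2:67445752-67446051, plus strand): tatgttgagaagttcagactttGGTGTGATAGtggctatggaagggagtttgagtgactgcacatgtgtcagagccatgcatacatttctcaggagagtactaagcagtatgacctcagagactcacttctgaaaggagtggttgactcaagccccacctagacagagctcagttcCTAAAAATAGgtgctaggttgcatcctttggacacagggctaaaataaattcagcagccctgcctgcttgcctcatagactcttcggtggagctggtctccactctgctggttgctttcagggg
Trim54 (chr5:31116362-31116661, plus strand): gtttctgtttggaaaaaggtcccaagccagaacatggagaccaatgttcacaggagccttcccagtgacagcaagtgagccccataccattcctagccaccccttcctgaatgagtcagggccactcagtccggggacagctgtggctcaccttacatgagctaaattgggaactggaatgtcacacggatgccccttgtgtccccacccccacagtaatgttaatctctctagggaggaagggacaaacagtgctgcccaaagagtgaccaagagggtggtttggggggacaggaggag
The Lmod2 promoter held 2 GATA matches and 1 T-box match, and the Nppa promoter held 1 GATA match, 1 T-box match and a TATA box. Xirp2 had 1 GATA match that overlaps its T-box match, and 1 MEF2 match. Trim54 had none of these motifs in this window. Of the 62 called higher members of the 5 lists, 47 had a promoter in the table, with 60 promoters in all. A GATA match was in 43.3% of these 60 promoters, against 29.8% of all 32851 promoters of the same length, a T-box match in 11.7% against 3.98%, and a MEF2 match in 11.7% against 3.19%. A TATA box was in 9 of the 60 promoters, against 13.6% of all. An E-box (CANNTG), the motif of basic helix-loop-helix factors, was in 78.3% against 72.3%. These are descriptions of letters, and several promoters of 1 gene can overlap. The lists were chosen as contractile, calcium and natriuretic genes, and no share was taken for members that did not rise. The shares thus describe the lists and not the day change.

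The 6 GHMT libraries held 30579135 to 37495178 counted reads, with 23137 to 24125 genes at 1 count or more, and 17576 genes had enough counts to be tested. Levels are CPM, a library's counts rescaled to a common total with TMM scaling. The labelled cell type was checked against its markers. Of the fibroblast genes, Vim averaged 5079 CPM at day 7 against 6687 CPM at day 2. Pdgfra averaged 175 CPM at day 7 against 155 CPM at day 2, and Thy1 249 CPM at day 7 against 199 CPM at day 2. Col1a2 fell further than Vim, with 1595.5 CPM at day 7 against 4496.6 CPM at day 2. Of the heart muscle markers, Tnnt2 averaged 9559 CPM at day 7 against 6392 CPM at day 2, and Actn2, Myh6 and Ryr2 rose as well. Genes of other lineages were present too. Of the epithelial and mesothelial markers 10 of 11 tested rose (90.9%). So did 11 of 20 tested skeletal muscle genes (55.0%) and 7 of 20 tested macrophage markers (35.0%). Over all genes tested 25.6% rose, to which the macrophage share came closest. The mesothelial marker Msln averaged 571 CPM at day 7 against 31.2 CPM at day 2. Epcam and Cdh1 (epithelium) and Myod1 (skeletal muscle) had too few counts to be tested. Within each day, 1 library stood apart: replicate 2 at day 7 and replicate 3 at day 2. In those, the deviation from the group mean correlated with log2 exon length across 11044 genes at r = -0.611 and r = -0.509, against 0.295 to 0.434 in the other 4 libraries. These correlations are across genes within a library, and genes are not independent replicates. The deviations within a group cancel for each gene, so the opposite signs are partly built in. The fold change between days itself correlated with log2 exon length at r = -0.0858. Counts that follow are given with both libraries left out where that matters, and the total without them is given first.

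More genes rose than fell, by a small margin among all called genes and a larger one among changes of at least 2-fold. Of the 17576 genes tested, 8823 (50.2%) were called at an adjusted p under 0.05 (edgeR's quasi-likelihood test with Benjamini-Hochberg adjustment, which gives every adjusted p that follows), 4508 (25.6%) higher and 4315 (24.6%) lower at day 7. The shares of 25.6% and 24.6% are the background for every list count that follows. Without the 2 libraries that stood apart the test called 3857 higher and 3574 lower. At least a 2-fold change was seen in 1206 called genes that were higher (6.86%) and 846 that were lower (4.81%). The 3 day 7 libraries were all above the 3 day 2 libraries for 5008 genes (28.5%) and all below them for 4964 genes (28.2%). The median log2 fold change over all genes was -0.0018, and 9673 genes (55.0%) had an unadjusted p under 0.05. No gene had 0 counts in all 3 libraries of 1 day and 30 or more counts in each library of the other. In these bulk RNA samples, fewer cells of a type and less RNA per cell cannot be told apart.

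**Figure D1:**
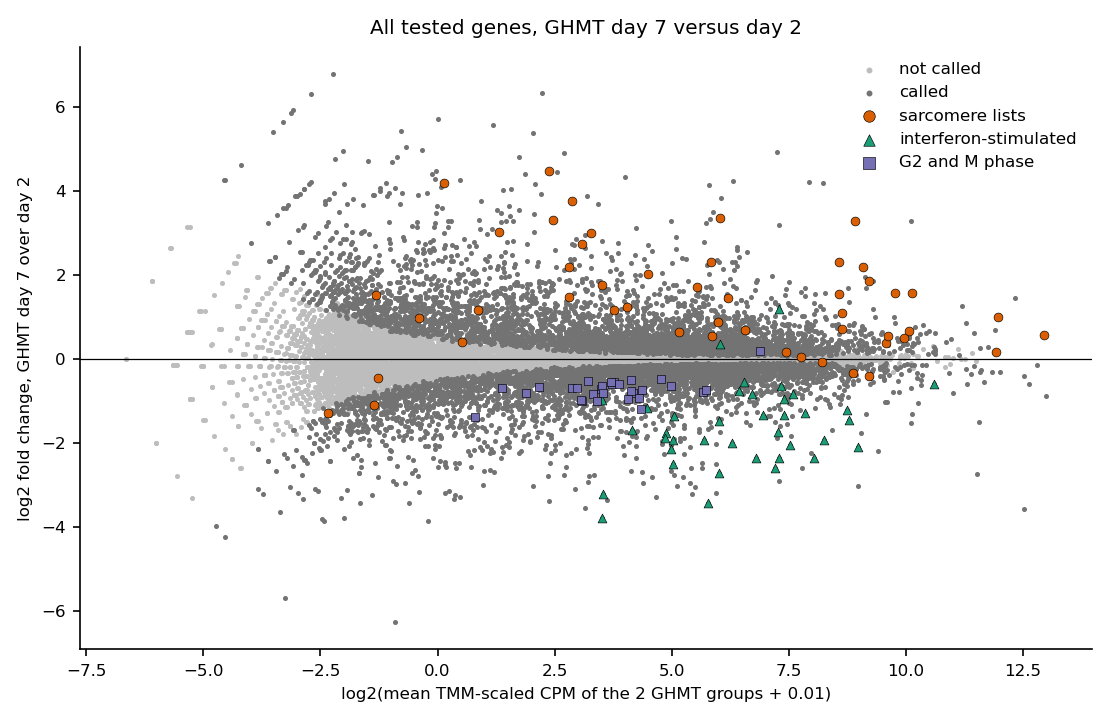
Log2 fold change of each tested gene between GHMT day 7 and day 2 (vertical axis) against its mean level in the 2 groups as log2 CPM (horizontal axis), with called genes in dark grey. Most sarcomere genes (circles) lie above 0, and 36 of 38 interferon-stimulated genes (triangles) and 29 of 30 G2 and M phase genes (squares) were called lower.

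The cocktail genes themselves fell slightly. Gene positions are those of GENCODE M21 on GRCm38. Mef2c (chr13:83504034-83667080) had 2032, 2039 and 1977 CPM in the day 7 libraries, against 3057, 3108 and 2996 CPM in the day 2 libraries (log2 fold change -0.60 ± 0.05 (SE), adjusted p = 7.51e-11). Tbx5 (chr5:119832668-119885219) had 2767, 2795 and 2677 CPM in the day 7 libraries, against 3447, 3479 and 3301 CPM in the day 2 libraries (log2 fold change -0.31 ± 0.05 (SE), adjusted p = 9.86e-06). Gata4 (chr14:63198922-63271692) had 1094, 1241 and 1091 CPM in the day 7 libraries, against 1427, 1502 and 1508 CPM in the day 2 libraries (log2 fold change -0.37 ± 0.05 (SE), adjusted p = 3.96e-07). For each of these, the 3 day 7 libraries were below the 3 day 2 libraries, and so they were for the fourth factor. Hand2 (chr8:57320983-57324633) had 979.9, 1019 and 935 CPM in the day 7 libraries, against 1142, 1169 and 1188 CPM in the day 2 libraries (log2 fold change -0.25 ± 0.05 (SE), adjusted p = 5.26e-05). All 4 stayed far above mock cells, in which the means were 33.1 CPM at day 7 against 13.6 CPM at day 2 for Mef2c, 11.0 CPM at day 7 against 11.3 CPM at day 2 for Tbx5, 1.399 CPM at day 7 against 1.66 CPM at day 2 for Gata4 and 7.58 CPM at day 7 against 5.80 CPM at day 2 for Hand2. Reads from the virus and from the cell's own gene cannot be told apart in these counts.

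Sarcomere genes rose together. Of 49 tested members of the thick filament, thin filament and Z-disc lists, 42 were called higher and 3 lower at day 7, with a median log2 fold change of 1.17, beside -0.0018 over all genes. For the 42 that rose, the day 2 level ran from 4.44% to 88.5% of the day 7 level with a median of 34.8%, and 39 of the 42 were already above the mock day 2 mean at GHMT day 2. The summed level of the 3 lists was 32842 to 34605 CPM in the day 7 libraries, against 20220 to 20494 CPM in the day 2 libraries. Without the libraries that stood apart, 40 were called higher and 2 lower.

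In the thick filament, 7 of 10 tested genes rose and 1 fell. Myh6 (chr14:54941921-54966927), the alpha isoform of cardiac myosin heavy chain, had 974, 811 and 876 CPM in the day 7 libraries, against 209, 206 and 168 CPM in the day 2 libraries. The day 7 libraries were all higher, 4.56-fold by the fit (log2 fold change 2.19 ± 0.09 (SE), adjusted p = 1.89e-16). Mybpc3, the cardiac myosin-binding protein C, had 629.6, 628 and 636 CPM in the day 7 libraries, against 128, 131 and 122 CPM in the day 2 libraries (log2 fold change 2.31 ± 0.06 (SE), adjusted p = 6.44e-20). Its relative Mybphl had 10.8, 9.71 and 9.41 CPM in the day 7 libraries, against 1.09, 0.961 and 0.933 CPM in the day 2 libraries (log2 fold change 3.32 ± 0.10 (SE), adjusted p = 1.41e-17). Both binding proteins were separated between days without overlap. The atrial and embryonic light chain Myl4 rose 3.001-fold, with 1668, 1772 and 1618 CPM at day 7 against 553, 535 and 597 CPM at day 2 (adjusted p = 4.08e-13). The atrial light chain Myl7 rose less, with 946, 991 and 883 CPM at day 7 against 626, 635 and 658 CPM at day 2 (log2 fold change 0.55, adjusted p = 1.29e-06). The ventricular light chains stayed near 0, with means of 0.339 CPM at day 7 against 0.464 CPM at day 2 for Myl2 and 0.108 CPM at day 7 against 0.265 CPM at day 2 for Myl3, and neither was called. Myh7, the beta myosin heavy chain, rose at a low level (2.52 CPM at day 7 against 1.12 CPM at day 2, log2 fold change 1.17), as did the cardiac myosin light chain kinase Mylk3 (18.8 CPM at day 7 against 8.44 CPM at day 2, 1.16). Per kilobase of exon, Myh6 was 449.7 times Myh7 at day 7 and 224 times at day 2. The member that fell was Myh7b, with 0.240 CPM at day 7 against 0.520 CPM at day 2, and it was not called without day 2 replicate 3, day 7 replicate 2 or day 7 replicate 3.

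In the thin filament, 10 of 11 tested genes rose and 1 fell. Lmod2 (chr6:24597762-24605414), a leiomodin that lengthens thin filaments and whose promoter is printed above, had 9.69, 10.2 and 10.0 CPM in the day 7 libraries, against 0.463, 0.497 and 0.366 CPM in the day 2 libraries (log2 fold change 4.48 ± 0.13 (SE), adjusted p = 5.93e-19). Actc1 (chr2:114047282-114053548), the cardiac actin, had 901, 889 and 838 CPM in the day 7 libraries, against 95.4, 89.7 and 85.0 CPM in the day 2 libraries (log2 fold change 3.28 ± 0.07 (SE), adjusted p = 5.02e-21). The skeletal actin Acta1 had 14.3, 17.1 and 20.7 CPM in the day 7 libraries, against 2.61, 2.12 and 1.67 CPM in the day 2 libraries (log2 fold change 3.02 ± 0.17 (SE), adjusted p = 1.89e-13). For these genes every day 7 library was above every day 2 library by a wide margin. Per kilobase of exon, cardiac actin Actc1 was 0.361 times the smooth muscle actin Acta2 at day 7 and 0.0301 times at day 2. Among the troponins, which make the filament sensitive to calcium, Tnnc1 had 1311, 1361 and 1235 CPM at day 7 against 441, 405 and 459.6 CPM at day 2 (2.99-fold higher, adjusted p = 2.57e-12). Tnnt2, cardiac troponin T, had 9487, 10096 and 9093 CPM at day 7 against an already high 6298, 6320 and 6558 CPM at day 2 (log2 fold change 0.58, adjusted p = 5.72e-07). Isoforms of the inhibitory subunit moved in opposite directions. The adult cardiac form Tnni3 rose to 109, 109.9 and 105 CPM at day 7, against 40.1, 38.1 and 39.4 CPM at day 2 (log2 fold change 1.47 ± 0.09 (SE), adjusted p = 4.02e-13). The slow skeletal and fetal form Tnni1 fell to 416, 434 and 399.5 CPM at day 7, against 534, 491 and 543 CPM at day 2 (log2 fold change -0.33 ± 0.08 (SE), adjusted p = 0.00126). Per kilobase of exon, Tnni3 was 0.454 times Tnni1 at day 7 and 0.131 times at day 2, so Tnni1 was the more abundant form on both days. Tropomyosin Tpm1 rose slightly (4142 CPM at day 7 against 3667 CPM at day 2, log2 fold change 0.18).

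Of 28 tested genes of the Z-disc, titin and M-band list, 25 were higher and 1 was lower at day 7 (median log2 fold change 1.37). Actn2 (chr13:12269426-12340760), the muscle alpha-actinin that crosslinks thin filaments at the Z-disc, had 125, 119.5 and 113 CPM in the day 7 libraries, against 11.6, 11.7 and 11.3 CPM in the day 2 libraries (log2 fold change 3.37 ± 0.06 (SE), adjusted p = 9.96e-23). Trim54, a ubiquitin ligase of the sarcomere, had 13.0, 14.5 and 13.3 CPM in the day 7 libraries, against 1.29, 0.629 and 1.07 CPM in the day 2 libraries (log2 fold change 3.77 ± 0.16 (SE), adjusted p = 3.86e-15). Its relative Trim63 had 72.3, 72.1 and 70.1 CPM in the day 7 libraries, against 22.1, 21.6 and 21.8 CPM in the day 2 libraries (log2 fold change 1.71 ± 0.07 (SE), adjusted p = 1.24e-15). These separate the days clearly, and the same was true of the Xin protein Xirp2 at a much lower level. Xirp2 had 2.41, 1.71 and 2.13 CPM in the day 7 libraries, against 0.0991, 0.166 and 0.0666 CPM in the day 2 libraries (log2 fold change 4.19 ± 0.44 (SE), adjusted p = 1.97e-08). Ttn, the giant spring protein titin, had 615, 413 and 595 CPM in the day 7 libraries, against 272, 287 and 197 CPM in the day 2 libraries (log2 fold change 1.10 ± 0.22 (SE), adjusted p = 1.55e-04). Within each day its lowest value was in the library that stood apart, and the groups still did not overlap. Myom2, a myomesin of the M-band, rose 3.64-fold to 949.5, 939 and 913 CPM at day 7, against 253, 264 and 253 CPM at day 2. Ankrd1, a stress-responsive protein of the Z-disc and nucleus, rose 2.00-fold. Per kilobase of exon it had 1865 CPM and rank 1 of all genes at day 7, against 932 CPM and rank 15 at day 2. Exon length here is that of all annotated exons of a gene together, so such ranks depend on the annotation. Tnnt2, with 9559 CPM at day 7, was divided by 7752 bases and ranked 12. Smaller rises were seen for the desmin gene Des (1311 CPM at day 7 against 823 CPM at day 2), the Z-disc protein Ldb3 (860.0 CPM at day 7 against 658 CPM at day 2) and filamin C (Flnc, 1167 CPM at day 7 against 829 CPM at day 2). Fhl2, a LIM protein, fell to 497, 544 and 484 CPM at day 7, against 664, 685 and 681 CPM at day 2 (log2 fold change -0.41 ± 0.06 (SE), adjusted p = 1.13e-06). Cmya5 (219.9 CPM at day 7 against 212 CPM at day 2) and Nexn (288 CPM at day 7 against 302 CPM at day 2) were not called.

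**Figure D2:**
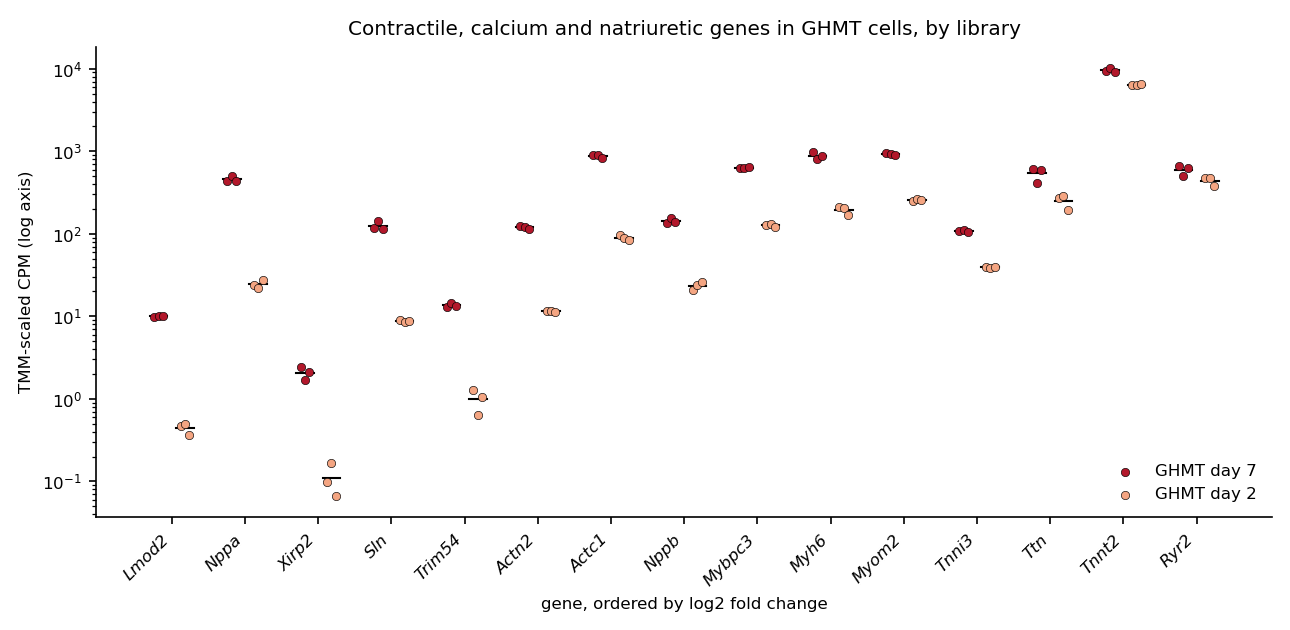
TMM-scaled CPM (log axis) of 15 contractile, calcium and natriuretic genes in each GHMT library, with the mean of each day as a bar and day 7 left of day 2. All 15 are genes called higher, and members of the same lists that fell, such as Tnni1, Fhl2 and Pln, are not drawn. By that choice the 3 day 7 libraries lie above the 3 day 2 libraries for each gene. The gap runs from Lmod2 at 9.69, 10.2 and 10.0 CPM at day 7 against 0.463, 0.497 and 0.366 CPM at day 2 to Ryr2, where it is narrow.

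Calcium handling genes rose unevenly: 13 of 21 were called higher and 3 lower. Sln (chr9:53850164-53854560), sarcolipin, a small inhibitor of the calcium pump of the sarcoplasmic reticulum, had 118, 142 and 113 CPM in the day 7 libraries, against 8.92, 8.51 and 8.66 CPM in the day 2 libraries (log2 fold change 3.84 ± 0.10 (SE), adjusted p = 6.68e-20). That is the largest change in the list, while the pump itself, Atp2a2, moved little, with 1764, 1587 and 1699 CPM at day 7 against 1538, 1511 and 1370 CPM at day 2 (log2 fold change 0.19 ± 0.05 (SE), adjusted p = 0.00318). Phospholamban (Pln), the other pump inhibitor, fell to 12.2, 13.5 and 13.4 CPM at day 7, against 16.1, 16.2 and 17.2 CPM at day 2 (log2 fold change -0.34 ± 0.08 (SE), adjusted p = 7.25e-04). The 2 inhibitors thus moved in opposite directions. Of the calcium release complex, triadin (Trdn) rose 3.11-fold (27.4 CPM at day 7 against 8.80 CPM at day 2), the calcium buffer Casq2 rose to 2441, 2291 and 2257 CPM at day 7, against 1706, 1678 and 1647 CPM at day 2, and the release channel Ryr2 had 669.6, 505 and 627 CPM at day 7 against 469, 472 and 379 CPM at day 2 (log2 fold change 0.45 ± 0.13 (SE), adjusted p = 0.00642). Srl, sarcalumenin, rose 2.45-fold and the kinase Camk2a 2.54-fold. The L-type channel subunit Cacna1c had 179 CPM at day 7 against 199.8 CPM at day 2 and was not called, its auxiliary subunit Cacnb2 rose 2.38-fold, and Cacna1d, a pacemaker-type calcium channel, fell at a low level (0.812 CPM at day 7 against 1.91 CPM at day 2).

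Among 18 tested potassium, sodium and pacemaker channel genes, 8 rose and 4 fell, and without the 2 libraries that stood apart 5 rose, so the count of rises depends on them. Without day 2 replicate 3 alone it was 4. Kcnj5, a subunit of the atrial acetylcholine-gated potassium channel, had 142, 133 and 142 CPM in the day 7 libraries, against 31.2, 29.7 and 28.2 CPM in the day 2 libraries (log2 fold change 2.23 ± 0.06 (SE), adjusted p = 4.11e-18), whereas its partner subunit Kcnj3 fell (2.21 CPM at day 7 against 4.61 CPM at day 2). Every day 7 library of Kcnj5 was above every day 2 library. Hcn4, the main pacemaker channel, was at 462, 354 and 425 CPM at day 7 against 451, 419 and 365 CPM at day 2, and the groups overlapped (log2 fold change 0.01, adjusted p = 0.971). Abcc9, the regulatory subunit of a potassium channel gated by ATP, fell 2.58-fold (5.16 CPM at day 7 against 13.3 CPM at day 2).

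Both natriuretic peptides measured here rose strongly. Nppa (chr4:148000722-148002079), atrial natriuretic peptide, had 437, 503 and 442 CPM in the day 7 libraries, against 23.7, 22.3 and 27.5 CPM in the day 2 libraries (log2 fold change 4.23 ± 0.10 (SE), adjusted p = 1.12e-20). Nppb, the related B-type peptide, had 135, 157 and 139 CPM in the day 7 libraries, against 20.7, 23.7 and 26.3 CPM in the day 2 libraries (log2 fold change 2.61 ± 0.09 (SE), adjusted p = 1.65e-17). The days were far apart for both peptides. In contrast, the processing protease Corin had 117 CPM at day 7 against 120.1 CPM at day 2 and was not called, and the receptor Npr1 fell 2.20-fold (1.43 CPM at day 7 against 3.15 CPM at day 2). The list as a whole had 7 of 17 members higher and 6 lower. The cAMP-binding Popeye genes Popdc2 (268 CPM at day 7 against 113 CPM at day 2) and Popdc3 (22.3 CPM at day 7 against 4.32 CPM at day 2) rose, while the beta-1 adrenergic receptor Adrb1 (4.62 CPM at day 7 against 8.57 CPM at day 2) and the muscarinic receptor Chrm2 (6.38 CPM at day 7 against 12.8 CPM at day 2) fell. At the intercalated disc, where heart muscle cells join, 7 of 13 rose and 3 fell. Dsp, desmoplakin, had 3494, 2815 and 3302 CPM in the day 7 libraries, against 1902, 1777 and 1617 CPM in the day 2 libraries (log2 fold change 0.86 ± 0.09 (SE), adjusted p = 1.60e-08). Gja5, the atrial connexin, had 115, 116 and 122 CPM in the day 7 libraries, against 50.1, 43.4 and 47.5 CPM in the day 2 libraries (log2 fold change 1.33 ± 0.07 (SE), adjusted p = 3.20e-14). The ubiquitous connexin Gja1 was not called (811 CPM at day 7 against 791 CPM at day 2), so Gja5 per kilobase was 0.260 times Gja1 at day 7 and 0.106 times at day 2. Among the genes that fell were the desmocollin Dsc2 (49.98 CPM at day 7 against 83.6 CPM at day 2) and the connexin Gjc1 (8.44 CPM at day 7 against 15.3 CPM at day 2).

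Cardiac regulators outside the cocktail did not rise as a group: of 29 tested, 8 rose and 14 fell, with a median log2 fold change of -0.05. Tbx20, a T-box factor of the heart, had 288, 239.6 and 268 CPM in the day 7 libraries, against 90.5, 83.1 and 76.7 CPM in the day 2 libraries (log2 fold change 1.67 ± 0.07 (SE), adjusted p = 1.96e-16). It was the member with the largest rise. Myocd, the coactivator myocardin, fell to 89.0, 73.3 and 85.3 CPM at day 7, against 126, 126 and 98.3 CPM at day 2 (log2 fold change -0.50 ± 0.11 (SE), adjusted p = 4.70e-04). The Notch targets Hey2 (2.16 CPM at day 7 against 5.87 CPM at day 2) and Hey1 (0.899 CPM at day 7 against 2.38 CPM at day 2) fell while their relative Heyl rose (18.8 CPM at day 7 against 7.74 CPM at day 2). Gata6, a relative of Gata4, fell (18.96 CPM at day 7 against 29.3 CPM at day 2), and Isl1, a factor of early heart progenitors, fell at low levels (0.378 CPM at day 7 against 1.10 CPM at day 2). Nkx2-5, the homeobox factor of early heart muscle, had too few counts to be tested, with means of 0.0771 CPM at day 7 against 0.0443 CPM at day 2.

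Of 20 tested skeletal muscle genes 11 rose and none was called lower, with 1 lower when day 7 replicate 2 or both libraries that stood apart were left out. The fast light chain Myl1 rose 4.45-fold (23.1 CPM at day 7 against 5.17 CPM at day 2) and the alpha-actinin Actn3 1.90-fold (17.2 CPM at day 7 against 9.06 CPM at day 2). The master regulator Myod1 was not testable (0.0552 CPM at day 7 against 0.0331 CPM at day 2), and Myog was not called (0.181 CPM at day 7 against 0.0885 CPM at day 2). Smooth muscle and myofibroblast genes split, with 6 of 15 higher and 6 lower. Cnn1, calponin, rose 2.82-fold (79.3 CPM at day 7 against 28.1 CPM at day 2), and Myh11, the smooth muscle myosin, had 342, 299 and 311 CPM at day 7 against 184, 184 and 164 CPM at day 2 (log2 fold change 0.84 ± 0.07 (SE), adjusted p = 5.76e-10). Acta2, smooth muscle actin, fell slightly (3292 CPM at day 7 against 4056 CPM at day 2), and so did the light chain kinase Mylk (115 CPM at day 7 against 185 CPM at day 2).

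Most genes of energy supply moved modestly, and a few rose strongly. In the creatine and oxygen supply list 5 of 8 rose and 1 fell. Mb, myoglobin, had 287, 296 and 272 CPM in the day 7 libraries, against 79.5, 77.8 and 83.7 CPM in the day 2 libraries (log2 fold change 1.83 ± 0.09 (SE), adjusted p = 7.80e-15). The brain-type creatine kinase Ckb had 439, 520.2 and 424 CPM in the day 7 libraries, against 155, 143 and 163 CPM in the day 2 libraries (log2 fold change 1.59 ± 0.09 (SE), adjusted p = 3.76e-13). The muscle creatine kinase Ckm was too low to test. Of 57 nuclear genes of oxidative phosphorylation, 22 rose and 1 fell (median log2 fold change 0.13), and 14 rose without the 2 libraries that stood apart (13 without day 7 replicate 2 alone). Cox6a2, the muscle isoform of a cytochrome oxidase subunit, rose 4.32-fold (2.76 CPM at day 7 against 0.641 CPM at day 2), and cytochrome c (Cycs) rose 1.67-fold (40.9 CPM at day 7 against 24.5 CPM at day 2). Atp5b, the catalytic subunit of ATP synthase, was not called (1239 CPM at day 7 against 1188 CPM at day 2). None of the 37 mitochondrial genes in the table had a count, so the mitochondrial genome was not measured. In the citric acid cycle 5 of 18 rose (27.8%) and 3 fell (16.7%), beside 25.6% and 24.6% of all genes. Without those libraries, and with no filter on low counts, the counts were 3 and 1. With RLE scaling and with DESeq2, 8 rose. The count of rises was also 3 without day 2 replicate 1, day 2 replicate 2, day 7 replicate 1 or day 7 replicate 2, and the count of falls was 1 without day 7 replicate 3. Idh2, a mitochondrial isocitrate dehydrogenase, fell to 54.5, 54.0 and 54.3 CPM at day 7, against 107, 103 and 103 CPM at day 2.

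Fatty acid uptake and oxidation had 10 of 30 members higher (33.3%) and 4 lower (13.3%), beside 25.6% and 24.6% of all genes. Pdk4, a kinase that holds back pyruvate oxidation, rose to 69.0, 66.6 and 74.9 CPM at day 7, against 25.8, 25.04 and 23.1 CPM at day 2 (log2 fold change 1.51 ± 0.06 (SE), adjusted p = 7.31e-17). Cpt1a, which admits fatty acids to the mitochondrion, fell (140.3 CPM at day 7 against 223 CPM at day 2), and the coactivator of mitochondrial biogenesis Ppargc1a fell as well (5.37 CPM at day 7 against 10.6 CPM at day 2). In glycolysis 12 of 25 rose and 2 fell. Hk2, the hexokinase of muscle and fat, had 139.9, 127 and 139 CPM in the day 7 libraries, against 75.9, 73.9 and 77.8 CPM in the day 2 libraries (log2 fold change 0.83 ± 0.05 (SE), adjusted p = 1.25e-12). The muscle phosphoglycerate mutase Pgam2 rose 1.83-fold (128 CPM at day 7 against 69.7 CPM at day 2), and the lactate exporter Slc16a3 fell 1.89-fold (22.9 CPM at day 7 against 43.3 CPM at day 2). The core enzymes Gapdh (272 CPM at day 7 against 269 CPM at day 2), Ldha (577 CPM at day 7 against 609.7 CPM at day 2) and Pgk1 (210.0 CPM at day 7 against 218 CPM at day 2) were not called.

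More matrix genes fell than rose, and the type IV collagen chains Col4a1 and Col4a2 were among the exceptions. Of 22 collagen chain genes 13 fell and 5 rose. Col1a1, the main chain of type I collagen, had 5990, 5375 and 5776 CPM in the day 7 libraries, against 10832, 10878 and 10111 CPM in the day 2 libraries (log2 fold change -0.89 ± 0.06 (SE), adjusted p = 2.96e-12). Its partner Col1a2 had 1668, 1486 and 1633 CPM in the day 7 libraries, against 4520, 4591 and 4379 CPM in the day 2 libraries (log2 fold change -1.49 ± 0.06 (SE), adjusted p = 7.86e-17). Type III collagen, Col3a1, had 259, 223 and 249 CPM in the day 7 libraries, against 1083, 1170 and 1106 CPM in the day 2 libraries (log2 fold change -2.20 ± 0.07 (SE), adjusted p = 8.03e-19). All day 7 libraries were below all day 2 libraries for these 3 chains, and Col14a1 fell 5.65-fold (18.7 CPM at day 7 against 105 CPM at day 2). The basement membrane collagen chains Col4a1 and Col4a2 went the other way, which was not true of every type IV chain. Per kilobase of exon, Col4a5 was at 112 CPM at day 7 against 110 CPM at day 2. Col4a6 was at 11.0 CPM at day 7 against 12.5 CPM at day 2. Col4a1 had 4964, 4486 and 4761 CPM at day 7 against 3086, 2980 and 2790 CPM at day 2 (log2 fold change 0.68 ± 0.05 (SE), adjusted p = 2.87e-11), and Col4a2 had 3542, 3289 and 3376 CPM at day 7 against 2327, 2230 and 2053 CPM at day 2 (log2 fold change 0.63 ± 0.05 (SE), adjusted p = 2.84e-10). Per kilobase of exon, Col4a1 was 0.729 times Col1a1 at day 7 and 0.245 times at day 2. Of 29 elastic fibre, crosslinking and proteoglycan genes 19 fell and 8 rose. Eln (chr5:134702593-134747323), elastin, had 10.8, 7.67 and 11.1 CPM in the day 7 libraries, against 85.9, 79.9 and 76.5 CPM in the day 2 libraries (log2 fold change -3.04 ± 0.19 (SE), adjusted p = 1.78e-12). The microfibril gene Mfap4 had 9.86, 7.396 and 7.87 CPM in the day 7 libraries, against 76.6, 76.6 and 79.4 CPM in the day 2 libraries (log2 fold change -3.21 ± 0.13 (SE), adjusted p = 1.89e-16). Ogn, osteoglycin, had 7.48, 7.26 and 8.004 CPM in the day 7 libraries, against 54.6, 67.1 and 63.2 CPM in the day 2 libraries (log2 fold change -3.02 ± 0.11 (SE), adjusted p = 3.78e-17). By the fit they were 8.23-fold, 9.24-fold and 8.14-fold lower at day 7, and no library of one day overlapped the other day. The fibrillin Fbn2 fell 4.05-fold and the proteoglycan Lum 2.70-fold, whereas the proteoglycan Prelp rose 4.41-fold (112 CPM at day 7 against 25.4 CPM at day 2) and the crosslinking enzyme Lox 1.27-fold (635 CPM at day 7 against 499 CPM at day 2).

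Matricellular and adhesive genes split into 8 of 20 higher and 10 lower. Thbs1, thrombospondin 1, had 7772, 6849 and 8050 CPM in the day 7 libraries, against 2889, 2738 and 2622 CPM in the day 2 libraries (log2 fold change 1.46 ± 0.06 (SE), adjusted p = 9.88e-16), and its gain in mean CPM was the largest among called genes with a gene name. Ctgf, a connective tissue growth factor of the CCN family, had 854, 944 and 875 CPM in the day 7 libraries, against 212, 228 and 247 CPM in the day 2 libraries (log2 fold change 1.96 ± 0.08 (SE), adjusted p = 2.25e-16). Another member of that family, Nov, fell 5.91-fold (1.94 CPM at day 7 against 11.4 CPM at day 2). Family members therefore moved apart. Fn1, fibronectin, had 5362, 4388 and 5377 CPM in the day 7 libraries, against 8298, 8115 and 6412 CPM in the day 2 libraries (log2 fold change -0.59 ± 0.13 (SE), adjusted p = 5.46e-04), and periostin, Postn, fell to 176, 177 and 215 CPM at day 7, against 355, 367 and 367 CPM at day 2. Of the matrix proteases and inhibitors 11 of 22 rose and 7 fell. Plat, the tissue plasminogen activator, had 38.8, 35.4 and 36.5 CPM in the day 7 libraries, against 273, 291 and 270.3 CPM in the day 2 libraries (log2 fold change -2.91 ± 0.06 (SE), adjusted p = 3.93e-22). It was 7.53-fold lower at day 7, without overlap between days. Plau, the urokinase activator, rose 2.35-fold (23.7 CPM at day 7 against 10.1 CPM at day 2).

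TGF-beta and BMP genes had 15 of 29 members higher and 7 lower. The ligands Tgfb2 (219 CPM at day 7 against 125 CPM at day 2) and Tgfb3 (675 CPM at day 7 against 396 CPM at day 2) and the feedback inhibitor Smad7 (69.6 CPM at day 7 against 39.8 CPM at day 2) rose. Bmp4, a bone morphogenetic protein, fell to 5.83, 5.25 and 5.74 CPM at day 7, against 16.5, 18.2 and 15.6 CPM at day 2 (log2 fold change -1.58 ± 0.12 (SE), adjusted p = 7.73e-11), and its target Id2 fell 2.57-fold, while Id1 rose 2.06-fold. Among 35 fibroblast regulators and surface proteins 17 fell and 11 rose. The mesenchymal homeobox factor Prrx1 fell (133 CPM at day 7 against 210.1 CPM at day 2), as did Osr1 (3.48 CPM at day 7 against 7.96 CPM at day 2) and Zeb1 (126 CPM at day 7 against 193 CPM at day 2). The receptor Pdgfra and the surface protein Thy1 rose slightly, by 0.17 and 0.32 on the log2 scale, though the Pdgfra call was lost without day 2 replicate 2, day 2 replicate 3 or day 7 replicate 1, and Vim fell by 0.40 on that scale.

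Cell division genes fell. Of 30 genes of G2 and mitosis 29 were lower at day 7 and 1 was higher, with a median log2 fold change of -0.73. Ccna2, cyclin A2, had 12.8, 10.8 and 13.4 CPM in the day 7 libraries, against 29.9, 26.5 and 28.2 CPM in the day 2 libraries (log2 fold change -1.20 ± 0.08 (SE), adjusted p = 4.11e-12). Top2a, the topoisomerase of dividing cells, had 42.8, 33.7 and 43.7 CPM in the day 7 libraries, against 70.9, 64.1 and 65.5 CPM in the day 2 libraries (log2 fold change -0.74 ± 0.10 (SE), adjusted p = 5.30e-07). The proliferation marker Mki67 had 40.4, 29.4 and 42.9 CPM in the day 7 libraries, against 74.3, 63.6 and 56.1 CPM in the day 2 libraries (log2 fold change -0.79 ± 0.15 (SE), adjusted p = 1.01e-04). Days did not overlap for these genes. The exception was Cenpa, the centromeric histone, at 120.4, 133 and 124 CPM at day 7 against 109, 109.9 and 112 CPM at day 2 (log2 fold change 0.19 ± 0.05 (SE), adjusted p = 0.00301). Of 32 S phase genes 18 fell and 1, E2f1, rose (29.3 CPM at day 7 against 25.6 CPM at day 2), a call that was lost without day 2 replicate 1. Mcm6, a subunit of the replicative helicase, fell 2.34-fold (42.6 CPM at day 7 against 99.9 CPM at day 2), further than the other helicase subunits in the list, of which Mcm3 had 23.9 CPM at day 7 against 31.8 CPM at day 2 and Mcm2 25.1 CPM at day 7 against 32.2 CPM at day 2. Among p53 targets and inhibitors of cyclin-dependent kinases, 12 of 25 rose and 6 fell. Cdkn2a, the Ink4a/Arf locus, had 49.2, 59.5 and 51.1 CPM in the day 7 libraries, against 10.0, 10.5 and 12.3 CPM in the day 2 libraries (log2 fold change 2.28 ± 0.09 (SE), adjusted p = 1.07e-16). Cdkn1c, an imprinted inhibitor, had 64.3, 71.0 and 63.5 CPM in the day 7 libraries, against 162, 154 and 162 CPM in the day 2 libraries (log2 fold change -1.26 ± 0.09 (SE), adjusted p = 1.41e-11). The 2 inhibitors moved in opposite directions, and Cdkn1a, the main p53 target among them, rose 1.27-fold (1099 CPM at day 7 against 865 CPM at day 2).

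Interferon-stimulated genes fell almost without exception. Of 38 tested, 36 were lower and 1 was higher at day 7, with a median log2 fold change of -1.72. Rsad2, the antiviral protein viperin, had 36.7, 44.3 and 45.9 CPM in the day 7 libraries, against 303, 204 and 259 CPM in the day 2 libraries (log2 fold change -2.59 ± 0.24 (SE), adjusted p = 1.63e-09). Ifit3, an inhibitor of viral translation, had 54.2, 52.5 and 44.97 CPM in the day 7 libraries, against 295, 222 and 267 CPM in the day 2 libraries (log2 fold change -2.37 ± 0.22 (SE), adjusted p = 2.44e-09). Isg15 (chr4:156199424-156200818), a ubiquitin-like protein, had 254, 246 and 206 CPM in the day 7 libraries, against 636, 582.4 and 722 CPM in the day 2 libraries (log2 fold change -1.46 ± 0.24 (SE), adjusted p = 2.10e-05). Every day 7 library of these genes was below every day 2 library, and the list summed to 3626 to 4099 CPM at day 7 against 8130 to 9562 CPM at day 2. Mx1, an antiviral GTPase, fell most, to 1.18, 2.15 and 1.25 CPM at day 7, against 27.4, 16.5 and 19.9 CPM at day 2 (log2 fold change -3.78 ± 0.32 (SE), adjusted p = 4.03e-10). Ifi27 rose (218 CPM at day 7 against 96.1 CPM at day 2), and Oas3 had 72.8 CPM at day 7 against 57.1 CPM at day 2 with an adjusted p of 0.0533. In mock cells the list summed to 1302 to 1917 CPM at day 7 against 5104 to 6963 CPM at day 2. The interferon-stimulated response element motif was in 46.9% of the 32 promoters found for the members that fell, against 3.44% of all promoters. The list was chosen as interferon-stimulated genes and nearly all of it fell, so this share describes the list and not the day change.

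Most inflammatory genes rose, while some chemokines were lower, among them ones known to be induced by interferon. Of 27 tested genes of the chemokine and inflammation list 18 rose and 4 fell. Ptgs2 (chr1:150100031-150108227), the inducible cyclooxygenase, had 136, 144 and 175 CPM in the day 7 libraries, against 8.03, 7.72 and 8.06 CPM in the day 2 libraries (log2 fold change 4.25 ± 0.12 (SE), adjusted p = 2.38e-19). The chemokine Ccl2 had 94.8, 108 and 106 CPM at day 7 against 59.8, 49.8 and 71.5 CPM at day 2 (log2 fold change 0.77 ± 0.11 (SE), adjusted p = 1.27e-06), and the cytokine Lif rose 2.73-fold (49.4 CPM at day 7 against 18.1 CPM at day 2). Cxcl10, one of the interferon-induced chemokines, had 10.2, 14.4 and 12.2 CPM in the day 7 libraries, against 136, 85.6 and 113 CPM in the day 2 libraries (log2 fold change -3.19 ± 0.25 (SE), adjusted p = 9.61e-11), and Ccl5 and Cxcl9 fell too (2.12 CPM at day 7 against 16.4 CPM at day 2 and 0.437 CPM at day 7 against 3.48 CPM at day 2). Per kilobase of exon, the chemokine Cxcl12 was at 23.0 CPM at day 7 against 34.4 CPM at day 2. Macrophage markers summed to 79.5 to 84.8 CPM at day 7 against 50.9 to 59.8 CPM at day 2, with 7 of 20 called higher and 0 lower, or 12 higher and 1 lower both with no filter on low counts and with only the GHMT libraries fitted. The defining markers Lyz2 (22.2 CPM at day 7 against 11.9 CPM at day 2) and Csf1r (18.8 CPM at day 7 against 9.82 CPM at day 2) rose and Ptprc (0.772 CPM at day 7 against 0.641 CPM at day 2) was not called. Their part in the inflammatory genes was not tested. Genes of ERK feedback and the immediate early response rose in 21 of 29 cases and fell in 1 (2 without day 2 replicate 2). Dusp6, a phosphatase induced by ERK, had 84.3, 86.7 and 87.7 CPM in the day 7 libraries, against 27.5, 24.6 and 25.3 CPM in the day 2 libraries (log2 fold change 1.74 ± 0.05 (SE), adjusted p = 9.37e-19). Hbegf, a ligand of the EGF receptor, had 250.4, 268 and 254 CPM in the day 7 libraries, against 97.7, 99.8 and 107 CPM in the day 2 libraries (log2 fold change 1.34 ± 0.08 (SE), adjusted p = 3.28e-13). Both rose without overlap, while the feedback gene Spry1 fell (14.8 CPM at day 7 against 24.7 CPM at day 2).

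The gene with the largest loss in mean CPM among called genes with a name was one of an imprinted pair. H19 (chr7:142575529-142578143), a long noncoding RNA, had 966, 852 and 917 CPM in the day 7 libraries, against 10877, 10999 and 10565 CPM in the day 2 libraries (log2 fold change -3.57 ± 0.10 (SE), adjusted p = 1.92e-19). Igf2 (chr7:142650766-142666816), the growth factor gene that neighbours it, had 822, 733 and 717 CPM in the day 7 libraries, against 5206, 5314 and 4779 CPM in the day 2 libraries (log2 fold change -2.75 ± 0.07 (SE), adjusted p = 6.88e-20). The day 7 libraries held 11.9-fold less H19 and 6.73-fold less Igf2. Of 21 genes of the insulin and IGF axis 10 fell and 5 rose. Grb10, an imprinted inhibitor of insulin signalling, fell 2.03-fold (515 CPM at day 7 against 1046 CPM at day 2), and the binding protein Igfbp2 rose 3.77-fold (119 CPM at day 7 against 31.6 CPM at day 2). In the Notch and Wnt list 15 of 37 fell and 7 rose. Wif1, a secreted Wnt inhibitor, had 93.7, 99.5 and 94.7 CPM in the day 7 libraries, against 10.9, 9.57 and 10.1 CPM in the day 2 libraries (log2 fold change 3.24 ± 0.08 (SE), adjusted p = 1.21e-20), whereas Sfrp2, another secreted Wnt regulator, fell 3.49-fold (1.39 CPM at day 7 against 4.88 CPM at day 2).

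Most ribosomal protein genes fell by small amounts. Of 46 ribosomal protein genes 30 fell and 1 rose (median log2 fold change -0.22). The member that rose was not called without day 7 replicate 2. The count that fell was 17 without day 2 replicate 3 and 18 without day 7 replicate 1 or replicate 3, and 29 without both libraries that stood apart. Heat shock and chaperone genes had 10 of 20 higher and 2 lower (1 to 3 lower when single libraries were left out). The highest fold changes in this list were those of the small heat shock protein Hspb8 (89.9 CPM at day 7 against 49.95 CPM at day 2), the chaperone Hsph1 (112 CPM at day 7 against 70.7 CPM at day 2) and the small heat shock protein Cryab (712 CPM at day 7 against 469 CPM at day 2). Their muscle relative Hspb7, counted in the Z-disc list, rose 2.94-fold (572 CPM at day 7 against 194 CPM at day 2). In the list of ATF4 and the amino acid response 12 of 28 rose (42.9%) and 4 fell (14.3%). In sterol and fatty acid synthesis 12 of 31 rose (38.7%) and 6 fell (19.4%). Over all genes 25.6% rose and 24.6% fell.

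Markers of cell types other than fibroblasts and heart muscle were mixed. Of 11 tested epithelial and mesothelial markers 10 rose and 1 fell, and the list summed to 639 to 692 CPM at day 7 against 74.2 to 76.6 CPM at day 2. Most of that sum was Msln, mesothelin, with 560.2, 600.2 and 551 CPM in the day 7 libraries, against 32.5, 31.1 and 30.1 CPM in the day 2 libraries (log2 fold change 4.19 ± 0.08 (SE), adjusted p = 1.80e-22). The keratin Krt18 rose 13.1-fold (19.9 CPM at day 7 against 1.51 CPM at day 2), the mesothelial factor Wt1 fell (4.79 CPM at day 7 against 9.20 CPM at day 2), and Epcam (0.0693 CPM at day 7 against 0.0331 CPM at day 2) and Cdh1 (0.121 CPM at day 7 against 0.110 CPM at day 2) stayed near 0. Of 13 endothelial markers 4 rose (30.8%) and 3 fell (23.1%), near the shares of all genes, 25.6% and 24.6%. Of these markers 2 rose when day 2 replicate 2 or day 7 replicate 3 was left out, or with only the GHMT libraries fitted. Pecam1 was at 0.235 CPM at day 7 against 0.321 CPM at day 2, and was not called. Of 16 neural and glial markers 7 rose and 1 fell, and of 16 cartilage and bone markers 7 rose and 4 fell. Adipocyte markers had 11 of 17 higher and 4 lower, with 7 higher without day 7 replicate 2. Their summed level did not rise, with 226 to 236 CPM at day 7 against 238 to 245 CPM at day 2. In mock cells it was 437 to 463 CPM at day 7 against 118 to 136 CPM at day 2.

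Other genes with the highest and lowest fold changes lay outside the lists. Slc6a18, an amino acid transporter of the kidney, had 8.49, 9.22 and 10.1 CPM in the day 7 libraries, against 0.0330, 0.199 and 0.0999 CPM in the day 2 libraries (log2 fold change 6.34 ± 0.25 (SE), adjusted p = 1.53e-15). The chemokine gene Ccl17 had 8.41, 8.29 and 7.32 CPM in the day 7 libraries, against 0.132, 0.298 and 0.133 CPM in the day 2 libraries (log2 fold change 5.39 ± 0.22 (SE), adjusted p = 4.36e-16). Mal, a lipid raft protein of myelin and epithelia, had 292, 293 and 297 CPM in the day 7 libraries, against 9.25, 8.48 and 11.0 CPM in the day 2 libraries (log2 fold change 4.94 ± 0.09 (SE), adjusted p = 2.50e-22). Slc6a18 and Ccl17 were near 0 in every day 2 library, and Mal was low there. Padi3, a peptidylarginine deiminase, rose 30.4-fold (12.5 CPM at day 7 against 0.409 CPM at day 2), the steroid-making enzyme Cyp11a1 22.0-fold (11.2 CPM at day 7 against 0.508 CPM at day 2), the secreted protein Cbln4 20.1-fold (30.3 CPM at day 7 against 1.504 CPM at day 2) and Mlph, which links pigment granules to myosin, 17.9-fold (106 CPM at day 7 against 5.92 CPM at day 2). Further genes of at least 5 CPM with rises of this size were Tnfsf18 (28.4-fold), Ecel1 (21.4-fold), Adprhl1 (18.1-fold) and Tmem163 (16.7-fold). Among the lowest, the angiopoietin Angpt1 had 4.17, 4.95 and 4.92 CPM in the day 7 libraries, against 47.7, 45.3 and 45.1 CPM in the day 2 libraries (log2 fold change -3.30 ± 0.09 (SE), adjusted p = 2.41e-19). Ptn, the growth factor pleiotrophin, had 113, 109 and 108 CPM in the day 7 libraries, against 844, 942 and 902 CPM in the day 2 libraries (log2 fold change -3.02 ± 0.10 (SE), adjusted p = 1.15e-17). Both were clearly separated by day. Zcchc5 fell 11.8-fold, the interferon-induced GTPase Tgtp2 10.4-fold, the collagen galactosyltransferase Colgalt2 8.61-fold and the imprinted gene Dlk1, a Notch-related inhibitor of fat cell formation, 7.75-fold. Of the largest gains in CPM, Gpx3, a secreted glutathione peroxidase, had 3292, 3463 and 3216 CPM in the day 7 libraries, against 1376, 1399 and 1397 CPM in the day 2 libraries (log2 fold change 1.26 ± 0.05 (SE), adjusted p = 5.12e-17), and of the largest losses, Rnf213, a large ubiquitin ligase induced by interferon, had 670.0, 471 and 581.6 CPM in the day 7 libraries, against 1913, 1636 and 1385 CPM in the day 2 libraries (log2 fold change -1.52 ± 0.21 (SE), adjusted p = 1.02e-06).

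The day change was next set against that of mock cells, by a test of the difference between both changes. Mock cells also changed, with 5217 genes (29.7%) higher and 4537 (25.8%) lower at day 7. The change in GHMT cells differed from the mock change for 8667 genes (49.3%), higher in 4095 (23.3%) and lower in 4572 (26.0%), and with library totals alone as the scale the split was 5100 against 3674. That scale moved the median of all genes to 0.09, against -0.01 with TMM, so the TMM values are relative to a median near 0. Of the 8823 genes called in GHMT cells 5644 (64.0%) had a change that differed from mock. Among the 4508 that rose in GHMT cells, 1604 also rose in mock cells, 1209 fell and 1695 were not called. Among the 4315 that fell in GHMT cells, 1390 rose in mock cells, 1402 fell and 1523 were not called.

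Many contractile genes were near 0 counts in mock cells, where the fitted change depends on the small count added to each gene, so list counts and not fold sizes are given for them. The difference from mock was positive for 31 of 49 sarcomere genes and negative for 4. It was negative for 51 of 71 genes of the collagen, elastic fibre and matricellular lists and positive for 12. The type IV chains Col4a1 and Col4a2 were also higher at day 7 in mock cells, and neither difference was called. Col4a1 had 2595 CPM at day 7 against 1640 CPM at day 2 in mock cells (difference 0.02 ± 0.07 (SE), adjusted p = 0.844). Col4a2 had 1952.5 CPM at day 7 against 1140 CPM at day 2 there (difference -0.15 ± 0.07 (SE), adjusted p = 0.0978). Eln had the lowest difference among the genes named, with 9.86 CPM at day 7 against 80.8 CPM at day 2 in GHMT cells and 1688 CPM at day 7 against 37.9 CPM at day 2 in mock cells (difference of log2 changes -8.52 ± 0.27 (SE), adjusted p = 2.74e-18). Col1a2 had 17643 CPM at day 7 against 9103 CPM at day 2 in mock cells (difference -2.45 ± 0.08 (SE), adjusted p = 4.32e-18) and H19 had 3259 CPM at day 7 against 1350 CPM at day 2 (difference -4.84 ± 0.13 (SE), adjusted p = 2.31e-19), so both rose in mock cells and fell in GHMT cells. Interferon-stimulated genes fell less in GHMT cells, since the difference was positive for 32 of 38 and negative for 1, which was not called without day 2 replicate 3, day 7 replicate 1 or day 7 replicate 3 of the GHMT libraries, or without any of 4 mock libraries. Isg15 had 39.9 CPM at day 7 against 439 CPM at day 2 in mock cells (difference 2.01 ± 0.35 (SE), adjusted p = 3.52e-05). Glycolysis genes had a positive difference in 20 of 25 cases and a negative one in 3, with Pgk1 at 178 CPM at day 7 against 369 CPM at day 2 in mock cells (difference 1.00 ± 0.08 (SE), adjusted p = 1.96e-10). ERK feedback genes differed upward in 24 of 29 and downward in 2. Ptgs2 fell in mock cells (61.7 CPM at day 7 against 153 CPM at day 2, difference 5.57 ± 0.15 (SE), adjusted p = 2.54e-19). Macrophage markers differed downward in 19 of 20, and summed to 493 to 719.7 CPM in mock cells at day 7 against 81.5 to 84.4 CPM at day 2. Epithelial and mesothelial markers summed to 230 to 256 CPM in mock cells at day 7 against 62.1 to 70.3 CPM at day 2. They differed upward in 5 of 11 and downward in 4. Msln also rose in mock cells (65.1 CPM at day 7 against 12.7 CPM at day 2, difference 1.83 ± 0.11 (SE), adjusted p = 3.26e-13). Mitosis genes differed in fewer cases, downward in 10 of 30 (6 without GHMT day 2 replicate 1, day 2 replicate 3 or day 7 replicate 2, or without any of 4 mock libraries) and upward in 1.

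**Figure D3:**
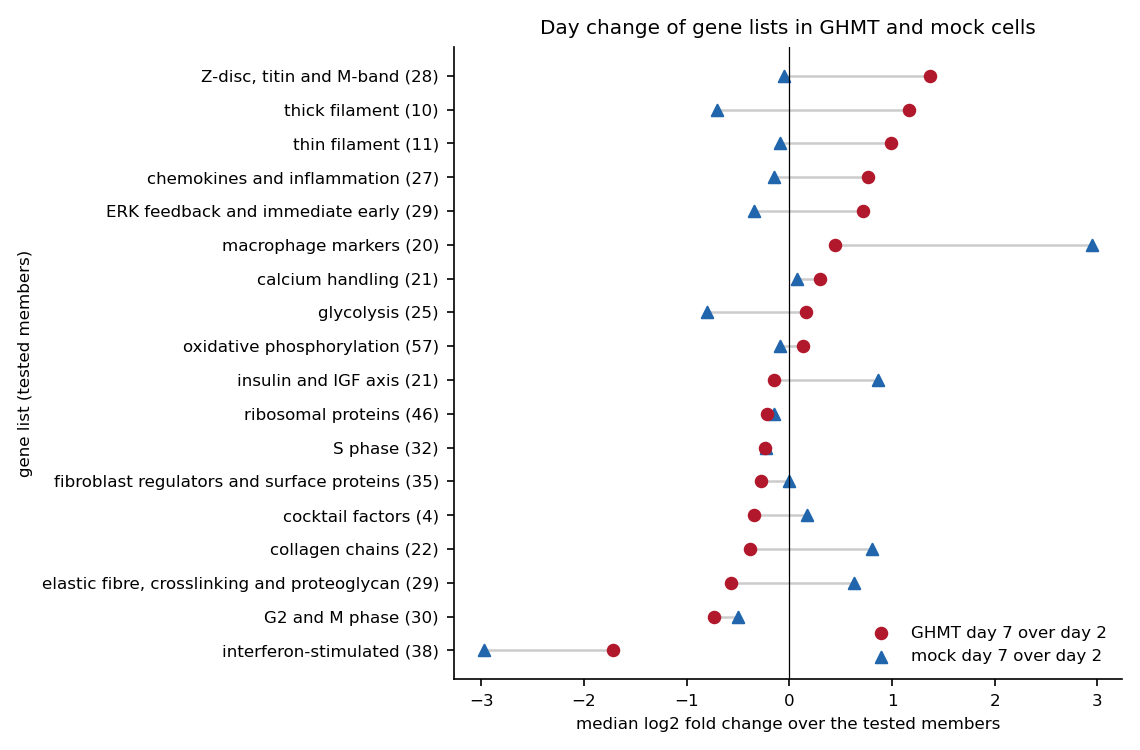
Median log2 fold change of day 7 over day 2 over the tested members of 18 gene lists in GHMT cells (circles) and mock cells (triangles), ordered by the GHMT value, with the number of tested members in parentheses. Sarcomere lists lie near 0.99 to 1.37 in GHMT cells and at or below 0 in mock cells, where many members are near 0 CPM, and collagen chains lie at -0.38 in GHMT cells and 0.80 in mock cells.

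**Figure D4:**
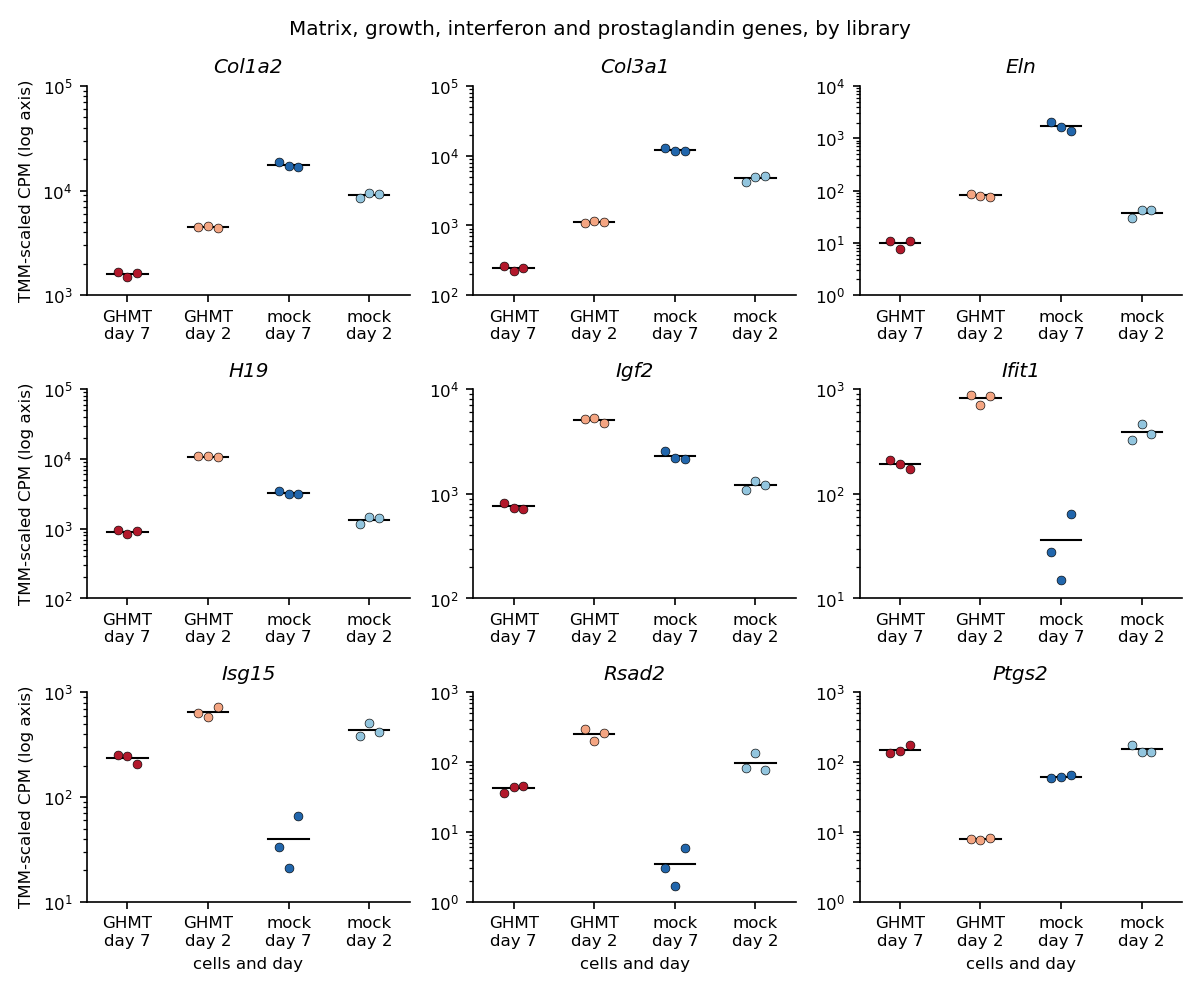
TMM-scaled CPM (log axis) of 9 genes in each library of 4 groups, with group means as bars. Col1a2, Col3a1, Eln, H19 and Igf2 are lower at day 7 than at day 2 in GHMT cells and higher in mock cells, Ifit1, Isg15 and Rsad2 are lower at day 7 in both, and Ptgs2 is higher at day 7 in GHMT cells and lower in mock cells.

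Against GMT cells, which lack Hand2, the day change differed for 2925 genes (16.6%), upward in 1332 (7.58%) and downward in 1593 (9.06%). With library totals alone the split was 2016 against 1111. Of the genes called in GHMT cells 24.5% differed from GMT. Sarcomere genes differed upward in 9 of 49 (5 without GMT day 2 replicate 2 or without both libraries that stood apart) and downward in 16. Myh6 rose less in GHMT than in GMT cells, where it had 254 CPM at day 7 against 14.4 CPM at day 2 (difference -1.95 ± 0.12 (SE), adjusted p = 3.92e-11), and Actc1 rose more than in GMT cells, which had 1352 CPM at day 7 against 331 CPM at day 2 (difference 1.25 ± 0.10 (SE), adjusted p = 9.55e-10). Casq2 rose less than in GMT cells (204 CPM at day 7 against 59.4 CPM at day 2, difference -1.31 ± 0.07 (SE), adjusted p = 6.57e-13), and Plat fell in GHMT cells but had 18.4 CPM at day 7 against 16.5 CPM at day 2 in GMT cells (difference -3.06 ± 0.08 (SE), adjusted p = 6.30e-18). Interferon-stimulated genes differed downward in 16 of 38 and upward in 0, with 10 downward without GMT day 7 replicate 2 34 with no filter on low counts and 35 when the libraries of GHMT and GMT were fitted alone.

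Against AGHMT cells, which were also given Akt1, the change differed for 3923 genes (22.3%). It was upward in 1590 (9.05%) and downward in 2333 (13.3%), or 2531 against 1738 with library totals alone. Of the genes called in GHMT cells 30.4% differed from AGHMT. Sarcomere genes differed upward in 6 of 49 and downward in 19. Myom2 rose less in GHMT than in AGHMT cells, which had 558 CPM at day 7 against 48.9 CPM at day 2 (difference -1.65 ± 0.06 (SE), adjusted p = 7.02e-16), and Nppa rose more than in AGHMT cells, which had 124 CPM at day 7 against 13.4 CPM at day 2 (difference 1.03 ± 0.13 (SE), adjusted p = 2.82e-06). Interferon-stimulated genes fell less than in AGHMT cells, with a positive difference in 24 of 38 and a negative one in 0. Ifit1 had 193 CPM at day 7 against 820.1 CPM at day 2 in GHMT cells and 28.7 CPM at day 7 against 487 CPM at day 2 in AGHMT cells (difference 2.00 ± 0.40 (SE), adjusted p = 5.80e-04). Of 15 smooth muscle and myofibroblast genes 14 differed downward and 0 upward (1 without AGHMT day 2 replicate 3), and of 71 matrix genes 39 differed downward and 3 upward (6 without AGHMT day 2 replicate 3, 5 without GHMT day 2 replicate 1).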

How the data were processed

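Total RNA of 24 libraries was sequenced, of which 6 make up the GHMT comparison. The deposited table holds raw read counts per gene, made by the authors and not normalised. Per the submitters' processing notes, the tools were DESeq2 1.6.3, featureCounts 1.4.6, HISAT2 2.0.1 and Trim Galore 0.4.1, and the build was GRCm38/mm10. Their order, settings, annotation release and use of strand are not given in the labels or files, so overlapping, antisense and near-identical genes are uncertain. Columns were matched to samples by name. The table has 47967 genes, 13946 of them at 0 in every library.

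Genes with low counts were removed with filterByExpr by group, and 17576 were fitted with edgeR 4.0.16 in R 4.3.3 (TMM scaling, quasi-likelihood test, two-sided, 1 mean per group over all 24 libraries, 16 residual degrees of freedom, Benjamini-Hochberg adjustment over all tested genes). Standard errors are the log2 fold change divided by the root of F. Differences of day change between cocktails were contrasts in the same fit, and the day changes compared share no library. Fits were tested on simulated counts. Positions come from GENCODE M21, which matched 99.653% of tested genes. Exon lengths are the union of all annotated exons of a gene, so levels and ratios per kilobase depend on the annotation. Genes named in the text are the 4 factors, members of a list, or among the 15 highest and 15 lowest fold changes at 5 CPM or more, the 10 largest gains and losses, and the 6 highest and lowest differences of day change; some genes the rule names are not reported here. The comparison, the 40 gene lists and the promoters were chosen with earlier results of these data known. Alternatives were RLE scaling, library totals alone, no filter, a replicate block, only the compared libraries, DESeq2 1.42.0 and leaving out each library. After the data were seen, leaving out both libraries that stood apart was added. Totals of 29345957 to 37495178 counts set the precision, and replicate chi-square per degree of freedom of 2.395 to 11.59 left no pair of GHMT libraries within sampling noise.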

Additional observations from a re-analysis of the deposited data

Results flagged for a closer look

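The change between day 7 and day 2 in GHMT cells differed from that in other cells by a test of the difference itself for the genes given here. Values are differences of log2 changes, GHMT minus the other cells, for up to 6 genes at each end that rank furthest among genes called in both tests. A positive difference can thus be a smaller fall in GHMT cells, and a negative one a smaller rise.

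Against mock cells the change was higher in GHMT cells for 4095 genes and lower for 4572. The highest were Cbln4 at 7.45, Trim54 at 6.89, Mybphl at 6.82, Ccl17 at 6.16, Cxcr6 at 5.81 and Padi3 at 5.76. The lowest were Eln at -8.52, Dlk1 at -7.29, Mstn at -6.83, Nov at -6.63, Adamts17 at -6.53 and Frem1 at -6.38. Cbln4, Trim54, Mybphl, Padi3 and Ccl17 averaged 0.124 CPM or less in mock cells on both days, and Mstn averaged 0.0468 CPM in mock cells at day 2, so the sizes of these differences depend on the small count added to each gene in the fit. The called differences of Cbln4 and Trim54 were lost without mock day 2 replicate 1.

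Against GMT cells the change was higher in GHMT cells for 1332 genes and lower for 1593. The highest were Nefm at 3.17, Col10a1 at 3.11, Serpina3n at 2.83, Padi2 at 2.66, Fndc1 at 2.57 and Dbh at 2.29. Among the lowest were H2-Q10 at -3.43, Plat at -3.06, Colgalt2 at -2.59, Anpep at -2.52 and Unc5c at -2.42.

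Against AGHMT cells the change was higher in GHMT cells for 1590 genes and lower for 2333. The highest were Grin2c at 2.41, Cyp11a1 at 2.37, Oasl2 at 2.05, Ifit1 at 2.00, Vtn at 1.92 and Isg15 at 1.88. The lowest were Col19a1 at -3.33, Pdlim3 at -2.69, Ogn at -2.52, Itih4 at -2.24, Fgl2 at -2.04 and Ica1l at -2.03. Grin2c, Oasl2, Ifit1 and Isg15 fell in GHMT cells, and fell further in AGHMT cells. Pdlim3, Itih4 and Ica1l rose in GHMT cells, and rose further in AGHMT cells.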

How the results depend on the processing

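No gene called in GHMT cells at day 7 against day 2 was called in the opposite direction under any alternative, and 82.0% to 99.3% of the 8823 called genes stayed called in the same direction. Of 232 values of single genes named in the text, none reversed. Myh7b, E2f1 and Pdgfra lost their call without 1 library, Trim54 and Cbln4 lost their called difference from mock without mock day 2 replicate 1, and Oas3 and Cacna1c gained a call under other settings. Deviations of same-numbered GHMT libraries correlated at 0.331, -0.349 and -0.419. Those of day 7 replicate 2 and day 2 replicate 3, the libraries that stood apart, correlated at 0.624. The signs follow which libraries stood apart, so these values cannot show whether equal replicate numbers mark pairs. With the replicate block, 4490 genes were called higher and 4277 lower, against 4508 and 4315 without it, heat shock genes called lower were 1 and macrophage markers called lower 1. With RLE scaling, citric acid cycle genes called higher were 8, interferon-stimulated genes called higher 2 and heat shock genes called lower 1. With DESeq2 they were 8 and 1 for the citric acid cycle and heat shock. With no filter, citric acid cycle genes were 3 higher and 1 lower, interferon-stimulated genes 2 higher, macrophage markers 12 higher and 1 lower, and interferon-stimulated genes differing downward from GMT 34. With only the compared libraries, interferon-stimulated genes were 2 higher, macrophage markers 12 higher and 1 lower, endothelial markers 2 higher, interferon-stimulated genes differing downward from GMT 35 and from mock 0. With library totals alone, genes differing upward were 2016 from GMT and 2531 from AGHMT, matrix genes upward from AGHMT 5, mitosis genes downward from mock 6 and interferon-stimulated genes downward from mock 0. Without both libraries that stood apart, genes called were 0 lower for the thick filament, 5 higher for channels, 1 lower for skeletal muscle, 14 higher for oxidative phosphorylation, 3 higher and 1 lower for the citric acid cycle, 1 lower for heat shock, 7 higher for adipocyte markers, 6 downward from mock for mitosis and 5 upward from GMT for the sarcomere. Leaving out single libraries gave ranges of 0 to 1 thick filament genes lower, 4 to 8 channel genes higher, 0 to 1 skeletal muscle genes lower, 13 to 26 oxidative phosphorylation genes higher, 3 to 4 citric acid cycle genes higher and 1 to 3 lower, 0 to 1 S phase genes higher, 0 to 1 ribosomal genes higher and 17 to 33 lower, 1 to 2 ERK genes lower, 1 to 3 heat shock genes lower, 2 to 4 endothelial and 7 to 10 adipocyte markers higher. For the differences they gave 6 to 11 mitosis genes downward and 0 to 1 interferon-stimulated genes downward from mock, 10 to 17 interferon-stimulated genes downward and 5 to 9 sarcomere genes upward from GMT, and 2 to 6 matrix and 0 to 1 smooth muscle genes upward from AGHMT. The cause of these shifts was not tested. Genes under about 1 CPM rest on few reads.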
